A study of Homo sapiens with 10 samples.

Results

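Integrins are the cell surface receptors through which cells hold on to the extracellular matrix. The genes described here are 42 genes of integrin-based adhesion, chosen by name, namely 11 integrin alpha subunits, 7 integrin beta subunits, 15 cytoplasmic adaptors and kinases of focal adhesions and 9 membrane proteins that work beside integrins. All 42 had at least 1 annotated spot on the array, 151 spots together, out of 18334 genes and 31332 spots with a single gene symbol. The samples were A549 cells, a human lung adenocarcinoma cell line often used as a model of alveolar epithelium, grown either in rotating wall vessels (RWV, slowly turning chambers that keep cells suspended) or as conventional monolayers, in both cases in serum-containing Dulbecco's medium with glutamine. Total RNA of 5 RWV and 5 monolayer cultures, described as biological replicates, carried the dye Cy3, and each culture had its own one-colour array. The labels name no drug and no genetic change in either group, and all 10 cultures are of this single line. The growth note mentions RWV for every sample, so each culture's group was taken from its title.

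An integrin is a pair of one alpha and one beta subunit, and the pair decides which ligand is bound, such as collagens, laminins, or proteins with an RGD motif like fibronectin and vitronectin. The short tails inside the cell carry no enzyme activity. Talin and the kindlins bind the beta tail and switch the receptor on, and a layer of adaptors (paxillin, tensins, the complex of integrin-linked kinase, PINCH and parvin) and kinases (FAK, PYK2) ties it to actin and to signalling. Tetraspanins, syndecans, CD44 and caveolins sit beside integrins in the membrane and alter their clustering, ligand capture or turnover.

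Levels are given as normalised intensities (quantile normalised over the 10 arrays, mean over a gene's spots), in the order of arrays 1 to 5 of a group. Group means are means of log2 values turned back to intensities. Changes are log2 fold changes of RWV over monolayer on the log2(intensity + 50) scale with the standard error of the limma fit, 5 arrays in each group, and adjusted p is by Benjamini-Hochberg over all 18334 genes, with 0.05 as the threshold. Adding 50 understates the change of dim genes. A spot was called dim below a normalised intensity of 100, and a gene was called dim on an array where all its spots were. The median deposited intensity was 114 to 138 on RWV arrays and 122 to 184.5 on monolayer arrays. Precision is bounded by having 5 arrays a group. Arrays 4 and 5 of both groups had a lower floor (5th percentile 0 to 4) than arrays 1 to 3 (8 to 20). Changes within these array sets are given beside the main ones for ITGA1, ITGB1, ITGB2, BCAR1 and CAV1. For the other members they are not given, whether or not the sets differed. Of the spots at or above 60000, 89.3% to 93.1% lay within 200 units of the highest value on RWV arrays, against 5.84% to 8.45% on monolayer arrays. Among the 42 genes only ITGB1 had a spot at or above 60000, 1 of its 12. For that spot, readout and culture cannot be told apart. Whether this difference between the groups also reaches dimmer spots was not tested. Any such effect could not be told apart from culture either. The epithelial markers KRT8, KRT18, KRT7, EPCAM and CDH1 were above the dim level on all 10 arrays, with a summed intensity of 35245 to 51601 in RWV and 47918 to 63037 in monolayer, and KRT7 fell in RWV (log2 change -1.70, limma adjusted p = 0.00014). The endothelial markers PECAM1, VWF and CDH5 were dim on all 10 arrays, as were 2 of 5 fibroblast markers, DCN and PDGFRB, COL1A1 fell (-0.47), and the summed fibroblast level was 135.2 to 183.8 in RWV and 162.6 to 256.4 in monolayer. Of the platelet markers, PF4 (0.51) and PPBP (0.66) were not past the test, and GP9 rose by 1.15 ± 0.16 (limma adjusted p = 0.00026). Their summed level was 3615 to 5959 in RWV and 1775 to 2798 in monolayer. Most of it was GP9 (mean 4513 in RWV and 2010 in monolayer), and PPBP was dim on 4 RWV and 5 monolayer arrays. The part of this level in the results below was not tested.

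Past the test (limma), 8 of the 42 genes rose in RWV and 4 fell, and 30 were not past it. That is 28.6% of the members, against 30.1% of all genes, with 15.0% of all genes higher and 15.2% lower. The median log2 change was 0.00 over the members and 0.01 over all genes. In 11 members all RWV values lay on one side of all monolayer values, against 23.1% of all genes. CD82 and ITGB2 were the 2 members past the test that reached a 2-fold change. Without normalization between arrays, where the median of all genes shifts to -0.13, 3 members were higher (CD82, CD9 and ITGB2) and 6 lower (CAV1, FERMT2, ITGAE, LIMS1, TNS1 and TNS3), and over all genes 1037 were higher and 2518 lower, against 2743 and 2783 with it. All 12 members past the test kept their direction within arrays 1 to 3 and within arrays 4 and 5. So did 22 of the other 30 members. The 12 were called from these same arrays, so their shared direction is not replication. By themselves, arrays 1 to 3 gave 6 members higher and 2 lower, and arrays 4 and 5 gave 1 higher. In RNA of whole cultures, fewer cells making a transcript and less of it per cell cannot be told apart.

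**Figure D1:**
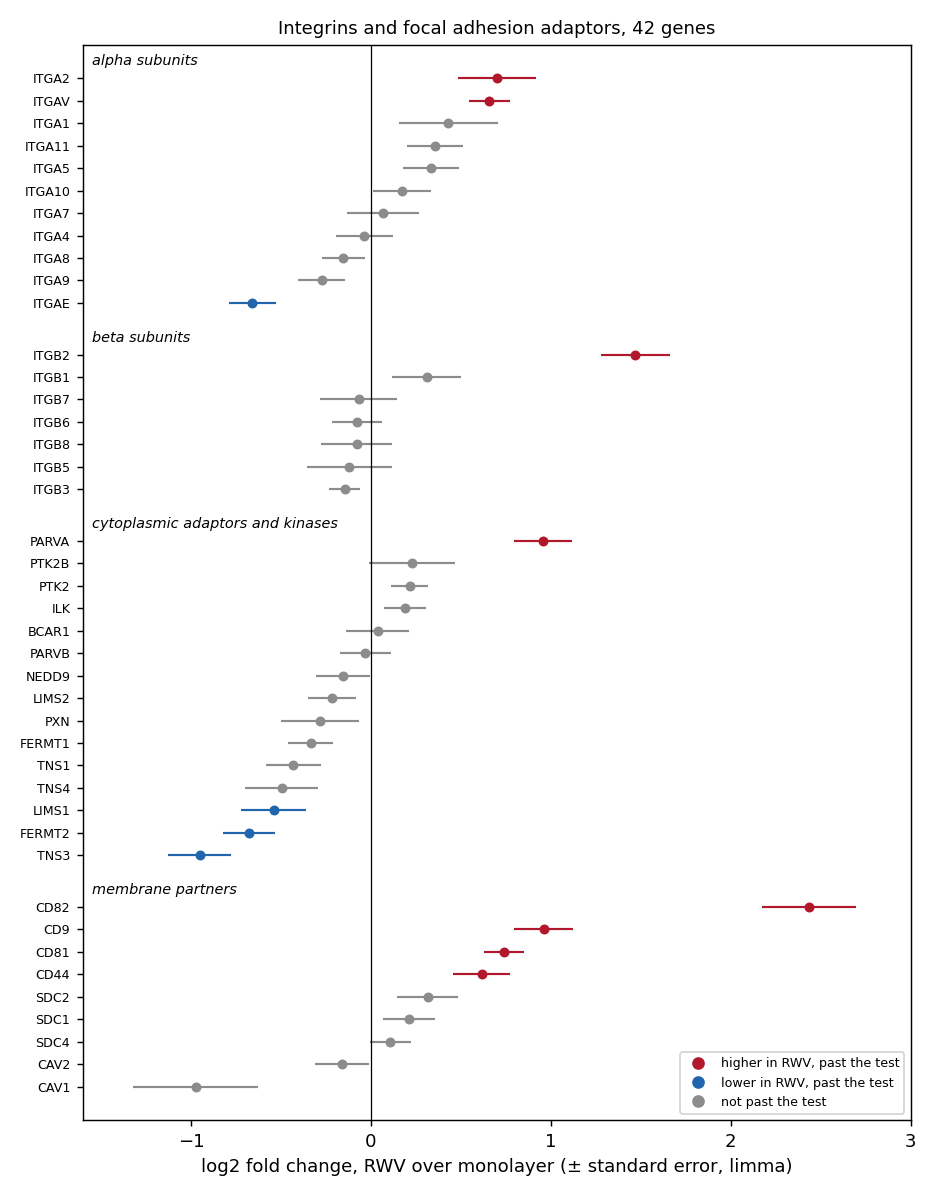
Log2 fold change of RWV over monolayer (x axis, ± standard error of the limma fit, 5 arrays per group) for the 42 genes by role. Red points are the 8 genes higher and blue points the 4 genes lower in RWV past the test. CD82 stands farthest to the right at 2.43, and the grey CAV1 point, at -0.97, has the widest error bar.

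To show the DNA in front of the members that moved most, the 250 bases before the gene start are printed for the 2 rises and the 2 falls with the largest change that have an entry in the RefSeq promoter table (GRCh38.p14), which holds 31 of the 42 genes. CD82 lies on the plus strand (chr11:44565413-44565662), CD9 on the plus strand (chr12:6199696-6199945), TNS3 on the minus strand (chr7:47582587-47582836) and FERMT2 on the minus strand (chr14:52951051-52951300), and each is written 5′ to 3′ along its gene. Capitals mark matches, on either strand, to the GC box of SP and KLF factors (GGGCGG), the one of the searched motifs found in these 4 windows.
CD82: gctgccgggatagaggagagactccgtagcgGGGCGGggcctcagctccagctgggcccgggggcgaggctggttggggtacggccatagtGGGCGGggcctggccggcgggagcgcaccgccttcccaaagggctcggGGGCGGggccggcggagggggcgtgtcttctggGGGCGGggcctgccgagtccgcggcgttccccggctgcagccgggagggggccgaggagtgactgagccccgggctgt
CD9: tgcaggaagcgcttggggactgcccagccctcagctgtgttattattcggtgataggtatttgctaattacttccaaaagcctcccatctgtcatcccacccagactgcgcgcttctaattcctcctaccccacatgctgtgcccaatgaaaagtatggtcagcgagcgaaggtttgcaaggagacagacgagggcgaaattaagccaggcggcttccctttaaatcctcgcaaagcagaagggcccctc
TNS3: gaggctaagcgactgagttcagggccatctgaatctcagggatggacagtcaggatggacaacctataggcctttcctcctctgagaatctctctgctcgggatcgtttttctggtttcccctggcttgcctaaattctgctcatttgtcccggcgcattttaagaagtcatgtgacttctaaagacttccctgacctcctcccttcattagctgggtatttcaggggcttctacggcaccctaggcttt
FERMT2: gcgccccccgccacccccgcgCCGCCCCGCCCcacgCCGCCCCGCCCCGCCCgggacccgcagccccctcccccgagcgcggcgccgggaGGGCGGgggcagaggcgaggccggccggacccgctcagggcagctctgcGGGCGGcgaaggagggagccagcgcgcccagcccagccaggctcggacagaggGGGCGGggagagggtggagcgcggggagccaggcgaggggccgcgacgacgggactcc
The GC box matched 4 times before CD82, the nearest 78 bases before the start, and 8 times before FERMT2, where neighbouring matches share bases. CD82 and FERMT2 changed in opposite directions, and their windows are 77.2% and 84.4% G and C, against 52.8% for CD9 and 50.4% for TNS3 and a median of 62.8% over the 14410 tested genes with a window of this length. The GC box was in 3 of 5 windows of members that rose, 2 of 4 of members that fell and 13 of 22 of the others, against 58.0% of all windows. AP-1 (TGANTCA; 4.75% of all windows), the hypoxia response core (ACGTG; 21.3%), TEAD (GGAATG; 9.97%), the TATA box (TATAAA; 8.31%) and the SRF-bound CArG box (1.12%) were searched on both strands too. Of these, ACGTG was in 1 of the 5 windows of members that rose. The others were in none of the 9 windows of members past the test, which says only that these letters are not in these windows.

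Among the alpha subunits, 2 of 11 rose and 1 fell, 27.3% past the test against 30.1% of all genes. ITGAV, the alpha subunit of the vitronectin and fibronectin receptors that also free latent TGF-beta, had normalised intensities of 6959.9, 8596, 6193, 7143 and 8159 in RWV, against 4388, 4367, 4277, 5096 and 5186 in monolayer. Every RWV array was above every monolayer array. The change was 0.66 ± 0.11 (limma adjusted p = 0.0012), and each of its 11 spots passed the test by itself, with changes of 0.43 to 0.72. Spots of a gene read the same RNA on each array. Their agreement, here and for the genes below, is not independent replication. Without normalization between arrays the change was 0.37 and no longer past the test (limma adjusted p = 0.40).

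ITGA2, the alpha subunit of the main epithelial collagen receptor, had 473.1, 237.2, 247.0, 262.1 and 361.6 in RWV and 165.3, 207.1, 180.6, 88.5 and 234.9 in monolayer. The groups did not overlap, but the lowest RWV array (237.2) and the highest monolayer array (234.9) nearly met, and monolayer 4 was far below its group. The change was 0.70 ± 0.22 (limma adjusted p = 0.028). Its 4 spots gave 0.31 to 1.21, 2 of them past the test. The change of 1.21 was that of the brightest spot (2419 in RWV and 1014 in monolayer). The other spots had group means of 44.3 to 211.7, and each was dim on at least 1 array. The call was lost without monolayer 1, RWV 1 or RWV 5 (limma adjusted p 0.058, 0.066 and 0.064) and without normalization (0.15).

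ITGAE, the alpha subunit that pairs with ITGB7 to bind E-cadherin and is best known from lymphocytes within epithelia, had 2545, 2737, 2992, 2584 and 2102 in RWV, against 5023, 4141, 3679.9, 4382 and 3421 in monolayer. All RWV arrays were below all monolayer arrays, by a log2 change of -0.66 ± 0.13 (limma adjusted p = 0.0025). Its partner ITGB7 was not past the test, at 294.6 in RWV and 311.3 in monolayer (change -0.07 ± 0.21).

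The other collagen-binding alpha subunits were not past the test. ITGA1 had a change of 0.43 ± 0.27 and was dim on 1 RWV and 2 monolayer arrays, and within arrays 1 to 3 its change was 0.07 and within arrays 4 and 5 it was 1.07. ITGA11 had 0.36 ± 0.15 (limma adjusted p = 0.11). One of its 2 spots passed by itself (0.55), and the gene passed without monolayer 4 (limma adjusted p = 0.049). ITGA10 was dim on all 10 arrays.

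The fibronectin receptor subunit ITGA5 had 385.6, 597.2, 349.6, 628.0 and 462.3 in RWV and 345.0, 427.9, 334.8, 341.2 and 382.4 in monolayer. RWV arrays 2, 4 and 5 lay above every monolayer array and RWV 1 and 3 within their range, and the change was 0.33 ± 0.15 (limma adjusted p = 0.13, and 0.043 without RWV 3). ITGA7, a laminin receptor subunit of muscle, had 311.3, 461.0, 253.3, 415.0 and 235.8 in RWV and 258.4, 345.2, 444.5, 218.0 and 313.3 in monolayer, with overlapping groups and a change of 0.07 ± 0.20. ITGA4, which in leukocytes binds VCAM1, and ITGA8, an RGD-binding subunit, were dim on all arrays. ITGA9, a receptor subunit for tenascin and osteopontin, was dim on 3 RWV and 4 monolayer arrays (change -0.27 ± 0.13).

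Among the beta subunits, 1 of 7 rose and none fell past the test (limma, none lower at an unadjusted p below 0.05). The share past it was 14.3%, against 30.1% of all genes. ITGB2, the beta subunit shared by the leukocyte integrins, had 266.6, 319.2, 258.6, 341.0 and 337.9 in RWV, against 66.9, 107.0, 100.4, 26.6 and 109.1 in monolayer. All RWV arrays were more than 2 times as high as any monolayer array, and monolayer 4 was the only array on which all its spots were dim. Its monolayer mean, 77.5, was below the dim level, and its single spots were dim on 2 to 5 monolayer arrays. The change was 1.47 ± 0.19 (limma adjusted p = 0.00021), 1.11 within arrays 1 to 3 and 2.10 within arrays 4 and 5. Of its 11 spots 9 passed the test by themselves, all higher in RWV, and 1 was dim on all 10 arrays. None of 5 measured leukocyte markers passed the test (limma; none at an unadjusted p below 0.05). Their changes lay between -0.15 and 0.16, and LAPTM5 was dim on all 10 arrays. PTPRC was dim on all 5 RWV and on 3 monolayer arrays, and CD3E on 4 RWV and 2 monolayer arrays. FCER1G was above the dim level on every array, and TYROBP on all but 2 of each group. The summed level of the 5 was 682.4 to 1231 in RWV and 636.4 to 1437 in monolayer. Of the alpha subunits that pair with ITGB2, ITGAX was higher in RWV as well (1.37 ± 0.15, limma adjusted p = 9.7e-05). It had 181.2, 282.4, 197.9, 143.2 and 229.6 in RWV and 39.0, 56.4, 67.1, 30.0 and 50.8 in monolayer, where it was dim on 4 of 5 arrays. ITGAL, ITGAM and ITGAD, the other alpha partners of ITGB2, were not past the test, with changes of -0.13, -0.05 and 0.11.

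ITGB1, the beta subunit with the most alpha partners, had 19669, 18431, 17796, 10702 and 13058 in RWV and 14996, 15399, 12631, 9151 and 11532 in monolayer. The groups overlapped, and in both of them arrays 4 and 5 were lower than arrays 1 to 3. The change was 0.31 ± 0.19 (limma adjusted p = 0.28), 0.37 within arrays 1 to 3 and 0.19 within arrays 4 and 5. None of its 12 spots passed by itself.

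ITGB5, which pairs with ITGAV, had 25149, 30745, 41137, 28112 and 22150.1 in RWV and 33896, 38512, 37387, 16858 and 36399 in monolayer (change -0.12 ± 0.24, limma adjusted p = 0.76). Monolayer 4 was far below the other monolayer arrays, and RWV 3 was the highest of all 10. Without these 2 arrays the change was -0.47 (limma adjusted p = 0.014). Leaving out the lowest monolayer and the highest RWV value must lower the estimate, so this p is not a separate test of ITGB5. The change was -0.34 without monolayer 4 alone and -0.25 without RWV 3 alone, neither past the test. ITGAV also pairs with ITGB1, given above, and with ITGB3, ITGB6 and ITGB8. ITGB3, the beta subunit of the vitronectin receptor of platelets and endothelium, and ITGB6, an epithelial activator of TGF-beta, were dim on all 10 arrays. ITGB8 was dim on 3 RWV and 4 monolayer arrays, and its 4 spots ran from -1.02 to 0.64 with none past the test.

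**Figure D2:**
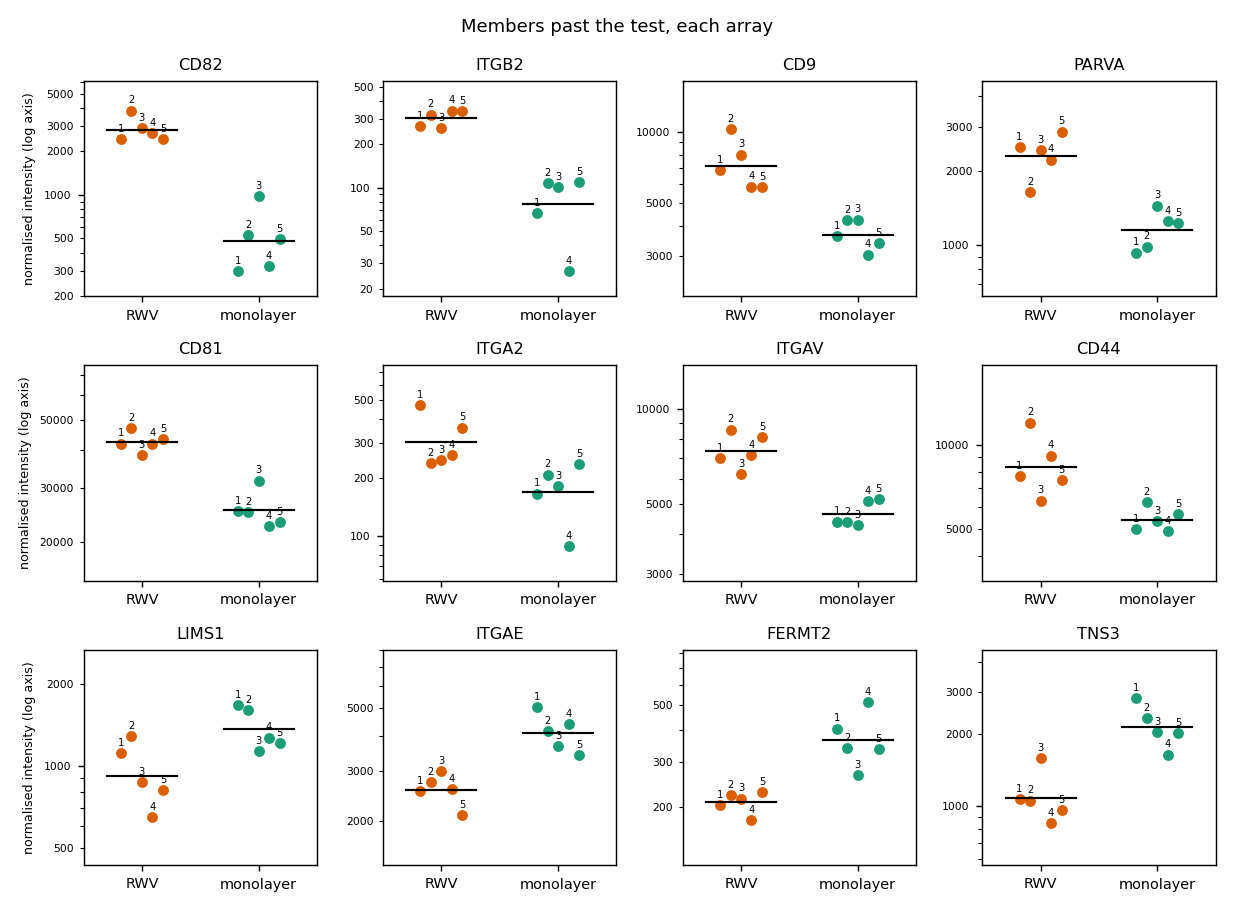
Normalised intensity (log axis, own scale in each panel) of the 12 members past the test on each RWV array (left, orange) and each monolayer array (right, green); numbers are array numbers and bars the mean of log2 values turned back to intensities. The groups are apart in 11 panels and overlap for LIMS1, and for ITGB2 and ITGA2 monolayer 4 lies below the other arrays.

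Among the 15 cytoplasmic adaptors and kinases, 1 rose and 3 fell, and the median change was -0.22. The share past the test was 26.7%, against 30.1% of all genes. TNS3, a tensin that links beta tails to actin, had 1065, 1053, 1587, 849.8 and 961.8 in RWV, against 2821, 2323, 2034, 1640 and 2017 in monolayer. Every RWV array was below every monolayer array, and RWV 3 was the highest of the RWV arrays. The change was -0.95 ± 0.18 (limma adjusted p = 0.0017), and its 2 spots gave -0.99 and -0.92. The other tensins among the members were below 0 without passing the test, and TNS2, a tensin outside them, had 0.43 ± 0.19 and was not past it. TNS1 had a change of -0.43 ± 0.15 (limma adjusted p = 0.0501), was dim on all 5 RWV arrays and on 1 monolayer array, and passed in 7 of 23 alternative settings. TNS4, a tensin of epithelial tumours, had 10730.4, 10870.0, 8138, 13455 and 6813 in RWV and 12113, 18511, 9865, 15062 and 14708 in monolayer, with overlapping groups and a change of -0.50 ± 0.20 (limma adjusted p = 0.091, and 0.038 without monolayer 3).

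Of the kindlins, which activate integrins together with talin, FERMT2 fell. It had 202.7, 222.1, 215.3, 177.9 and 228.7 in RWV and 404.8, 338.8, 265.8, 514.9 and 336.2 in monolayer, with no overlap, and a change of -0.68 ± 0.14 (limma adjusted p = 0.0041). FERMT1, the kindlin of epithelial cells, had a change of -0.33 ± 0.12 over its 3 spots and missed the threshold (limma adjusted p = 0.063). Of these spots 2 were dim on all 10 arrays, and the remaining one, at 975.1 in RWV and 1763 in monolayer, gave -0.82 and passed (limma adjusted p = 0.021 with dim spots left out of the average).

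The members of the complex of integrin-linked kinase did not share a direction. PARVA, the widely expressed parvin, had 2485, 1645, 2416, 2216 and 2871 in RWV, against 935.6, 988.8, 1448, 1249.6 and 1226 in monolayer. No RWV array was as low as any monolayer array, and the change was 0.96 ± 0.16 (limma adjusted p = 0.00095). Its size depended on the spot, with 0.31 and 0.60 from 2 spots annotated with the RefSeq mRNA, the second past the test, and 1.96 from a spot annotated with a cDNA clone. Without normalization between arrays it was 0.67 and not past the test (limma adjusted p = 0.11). PARVB, a parvin related to it, had a change of -0.03 ± 0.14.

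LIMS1, the PINCH adaptor of that complex, had 1115, 1282, 868.0, 649.1 and 812.0 in RWV and 1667, 1604, 1133, 1269 and 1211 in monolayer. RWV 2 overlapped with the monolayer range, and the change was -0.54 ± 0.18 (limma adjusted p = 0.039). The call was lost without monolayer 1 or 2 or RWV 3, 4 or 5 (limma adjusted p 0.069 to 0.099). LIMS2 had -0.22 ± 0.13 and was not past the test. ILK itself, the pseudokinase that holds the complex together, had 3166, 4358, 4735, 3814 and 3826 in RWV and 3331, 3391, 3867, 3463 and 3242 in monolayer, with a change of 0.19 ± 0.12 (limma adjusted p = 0.27).

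Neither adhesion kinase passed the test. FAK (PTK2) averaged 1113 in RWV and 951.8 in monolayer, a change of 0.22 ± 0.10. Its 12 spots all lay between 0.10 and 0.33, and the gene passed with the brightest spot alone (limma adjusted p = 0.042), but without normalization the average was -0.05. PYK2 (PTK2B) had 0.23 ± 0.24 over 10 spots. The Cas scaffolds, which FAK and SRC phosphorylate, were near 0, with 0.04 ± 0.18 for BCAR1 and -0.16 ± 0.15 for NEDD9. BCAR1 had 0.38 within arrays 1 to 3 and -0.56 within arrays 4 and 5.

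Paxillin (PXN), the scaffold that recruits FAK to adhesions, was singled out after its values were seen, because its spots disagreed. The average of 3 spots gave -0.28 ± 0.22 (limma adjusted p = 0.38). The spot annotated with the RefSeq mRNA averaged 7824 in RWV and 14312 in monolayer, and fell by 0.87 ± 0.20 on the log2 scale (limma adjusted p = 0.0072 over all spots). A spot annotated with a cDNA clone averaged 21233 in RWV and 14390 in monolayer, a change of 0.56 ± 0.30, and the third spot, dim on 4 RWV and 2 monolayer arrays, gave -0.54 ± 0.25. Neither cDNA spot passed the test, and the estimates for paxillin differed in sign between spots. No member had spots past the test in both directions.

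**Figure D3:**
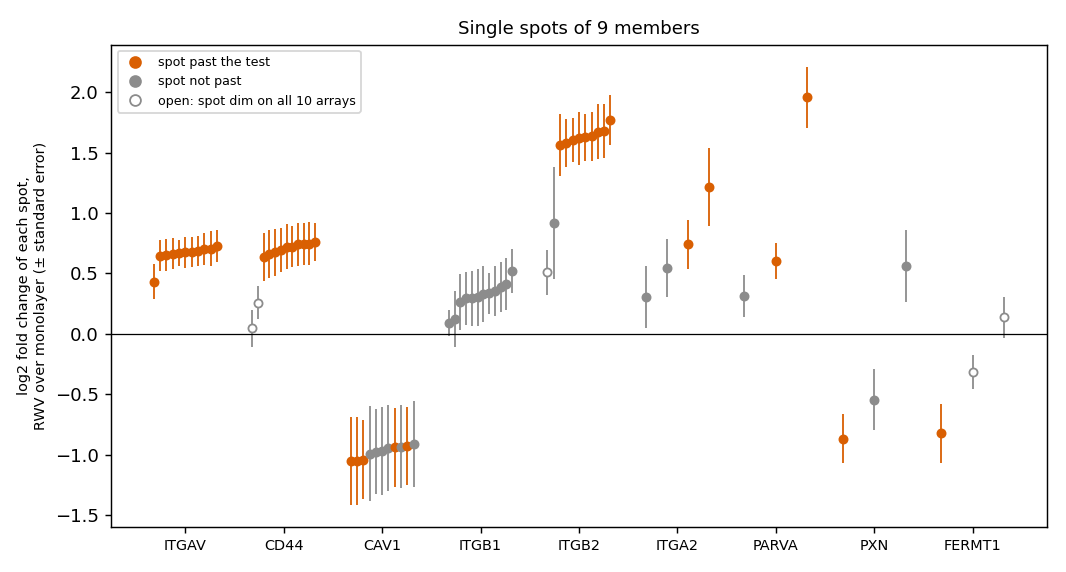
Log2 fold change of RWV over monolayer (y axis, ± standard error) of every spot of 9 members, sorted within each gene; orange spots passed the test over all spots, and open ones were dim on all 10 arrays. The spots of ITGAV lie close together, while those of PARVA run from 0.31 to 1.96 and those of PXN from -0.87 to 0.56. Spots of a gene read the same RNA and are not replicates.

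Among the 9 membrane partners, 4 rose and none fell past the test (limma, with an unadjusted p of 0.016 for CAV1), and the median change was 0.31. The share past the test was 44.4%, against 30.1% of all genes. The 3 tetraspanins in this group all rose. CD82, a tetraspanin known as a suppressor of tumour cell migration and metastasis, had the largest change of the 42 genes, with 2429, 3821, 2901, 2673 and 2437 in RWV, against 299.0, 524.5, 976.3, 321.6 and 496.1 in monolayer. The lowest RWV array was more than 2 times as high as the highest monolayer array, monolayer 3. The change was 2.43 ± 0.26 (limma adjusted p = 7.5e-05), and CD82 was the one member that stayed past the test in all 23 alternative settings. It was measured by 1 spot, so the settings that choose or leave out spots could not alter its change.

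CD9, a tetraspanin that binds laminin- and collagen-binding integrins, had 6877, 10208, 7992, 5857 and 5848 in RWV and 3629, 4231, 4249.9, 3028 and 3376 in monolayer, a change of 0.96 ± 0.17 (limma adjusted p = 0.0011). CD81, its close partner, had 41822, 46953, 38405, 41787 and 43330.5 in RWV and 25287, 25044, 31688, 22490.2 and 23248 in monolayer, a change of 0.74 ± 0.11 (limma adjusted p = 0.00049). In both genes the groups were apart on all arrays. Each was measured by 1 spot, and CD81 was no longer past the test without normalization (0.53, limma adjusted p = 0.12).

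CD44, the hyaluronan receptor, had 7697, 11989, 6311, 9127 and 7476 in RWV and 4991, 6234, 5342, 4908 and 5648 in monolayer. The groups did not overlap, though RWV 3 (6311) and monolayer 2 (6234) were close. The change was 0.62 ± 0.16 (limma adjusted p = 0.011). Of its 12 spots 10 passed by themselves with changes of 0.64 to 0.76, and 2 spots annotated with other GenBank records were dim on all 10 arrays. Without normalization the change was 0.37 (limma adjusted p = 0.29).

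The syndecans among the members, heparan sulphate proteoglycans that act as co-receptors for fibronectin, were not past the test. SDC1 had 1452, 1531, 1578, 1172 and 1239 in RWV and 1223, 1409.6, 1451, 1018 and 923.4 in monolayer, a change of 0.21 ± 0.14. SDC4 had 0.11 ± 0.11, and SDC2 was dim on all 10 arrays.

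CAV1, the coat protein of caveolae, had the lowest estimate of the 42 genes and the widest spread. It had 3481, 7682, 7626, 4499 and 3799 in RWV, against 11876, 9621, 6224, 22341 and 6588 in monolayer. RWV 2 and 3 reached into the monolayer range, and monolayer 4 was far above every other array. The change was -0.97 ± 0.35 and narrowly missed the threshold (limma adjusted p = 0.053), and it passed in 9 of 23 alternative settings. Without monolayer 4 it was -0.69 (limma adjusted p = 0.093). Within arrays 1 to 3 it was -0.59 and within arrays 4 and 5 it was -1.57. CAV2, its partner in the coat, had -0.16 ± 0.15, with spots at -0.50 and 0.18.

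Around these members, 32 of 113 measured genes of 6 further adhesion lists rose and 17 fell, 43.4% past the test against 30.1% of all genes. The lists were chosen with earlier results of these data known. The higher share therefore cannot be read as a result about adhesion genes. Of the 8 integrin subunits outside the 42 genes, 4 rose and 1 fell (62.5% past the test), with a median change of 0.58. ITGB4, the beta subunit of hemidesmosomes, had 14123, 17827, 21695, 13090.3 and 11860.5 in RWV, against 1715, 2735, 3639.7, 1068 and 2014 in monolayer, a change of 2.87 ± 0.29 (limma adjusted p = 5.2e-05). Its partner ITGA6 rose by 1.06 ± 0.13 and the laminin receptor subunit ITGA3 by 1.13 ± 0.14. ITGA2B, the platelet partner of ITGB3, was the one that fell (-0.56 ± 0.14), dim on all 5 RWV arrays and on 2 monolayer arrays. For ITGB4, ITGA6 and ITGA3 every RWV array was above every monolayer array. Over all 26 integrin subunits, 7 rose, 2 fell and 17 were not past the test, and 6 were dim on all 10 arrays. The share past the test was 34.6%, against 30.1% of all genes.

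Of 16 other tetraspanins 7 rose and 3 fell (median 0.31), so that with CD9, CD81 and CD82 the count was 10 of 19 higher. The share of the 19 past the test was 68.4%, against 30.1% of all genes. TSPAN8, a tetraspanin of gastrointestinal and lung tumours, had 3503, 7910.1, 3649, 2474 and 2760.2 in RWV and 59.7, 113.1, 268.4, 36.2 and 81.7 in monolayer, where it was dim on 3 arrays. Its change was 4.69 ± 0.37 (limma adjusted p = 2.3e-05). TSPAN1 rose too, at 2399.9 in RWV and 256.1 in monolayer. TSPAN7 and TSPAN13 rose by 3.29 and 1.22, the last lost without monolayer 1 or RWV 1, 2 or 3.

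Of 22 measured genes that tie adhesions to actin, 3 rose and 5 fell, with a median of -0.19. The share past the test was 36.4%, against 30.1% of all genes. The talin TLN2 fell by 1.16 ± 0.20 on the log2 scale, whereas TLN1, the widespread talin, was not past the test (-0.18 ± 0.12). TRIP6, a zyxin-related LIM protein, fell by 1.09 ± 0.16, and the actin crosslinker ACTN4 fell by 0.76 ± 0.25, a call lost when any one of 8 of the 10 arrays was left out. PDLIM1, which binds alpha-actinin, rose by 0.93 ± 0.18.

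Of 28 measured genes of adhesion signalling 5 rose and 4 fell (median -0.02), 32.1% past the test against 30.1% of all genes. APBB1IP, also called RIAM, which recruits talin to integrins downstream of RAP1, had 59.0, 54.8, 72.1, 109.0 and 82.3 in RWV, against 492.3, 499.7, 276.9, 484.2 and 628.6 in monolayer, a change of -2.05 ± 0.19 (limma adjusted p = 3.2e-05). It was dim on 2 RWV arrays, and every RWV array was below every monolayer array. The kinases FYN and SRC, which act on FAK and Cas, rose by 0.90 ± 0.21 and 0.79 ± 0.20, and the phosphatase PTPRA, an activator of SRC, by 0.53 ± 0.13. SRC and PTPRA were not past the test without normalization, nor was SRC with its brightest spot alone.

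Of 30 measured integrin ligands 10 rose and 4 fell (median 0.33), 46.7% past the test against 30.1% of all genes. Fibronectin (FN1) had 23669, 24164, 20248, 21999 and 23062 in RWV, against 2059, 4278, 9158, 947.3 and 5492 in monolayer. Its change was 2.73 ± 0.47, with a spot at or above 60000 on 5 arrays. For spots this bright, as for that of ITGB1, readout and culture cannot be told apart. Vitronectin (VTN) rose by 1.94 ± 0.22 and fibrinogen alpha (FGA) by 2.74 ± 0.84, the last lost without monolayer 1 or RWV 1, 2, 4 or 5. The basement membrane collagen COL4A2, a ligand of collagen-binding integrins, had 1560.0, 1217, 2113, 2711 and 1713 in RWV and 15451, 11189, 9177, 33476 and 15838 in monolayer, a change of -3.06 ± 0.31 (limma adjusted p = 6.1e-05).

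Of 9 paralogs of the members 3 rose and none fell past the test (limma, none lower at an unadjusted p below 0.05). The share past it was 33.3%, against 30.1% of all genes, and 4 paralogs were dim on all 10 arrays. The paxillin relatives TGFB1I1 (HIC-5) and LPXN (leupaxin) rose by 1.07 ± 0.14 and 0.58 ± 0.14, and the syndecan SDC3 rose by 0.73 ± 0.13. LPXN was not past the test without normalization. The kindlin FERMT3 and the parvin PARVG, both known mainly from blood cells, and the Cas relatives CASS4 and EFS were dim on all 10 arrays.

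**Figure D4:**
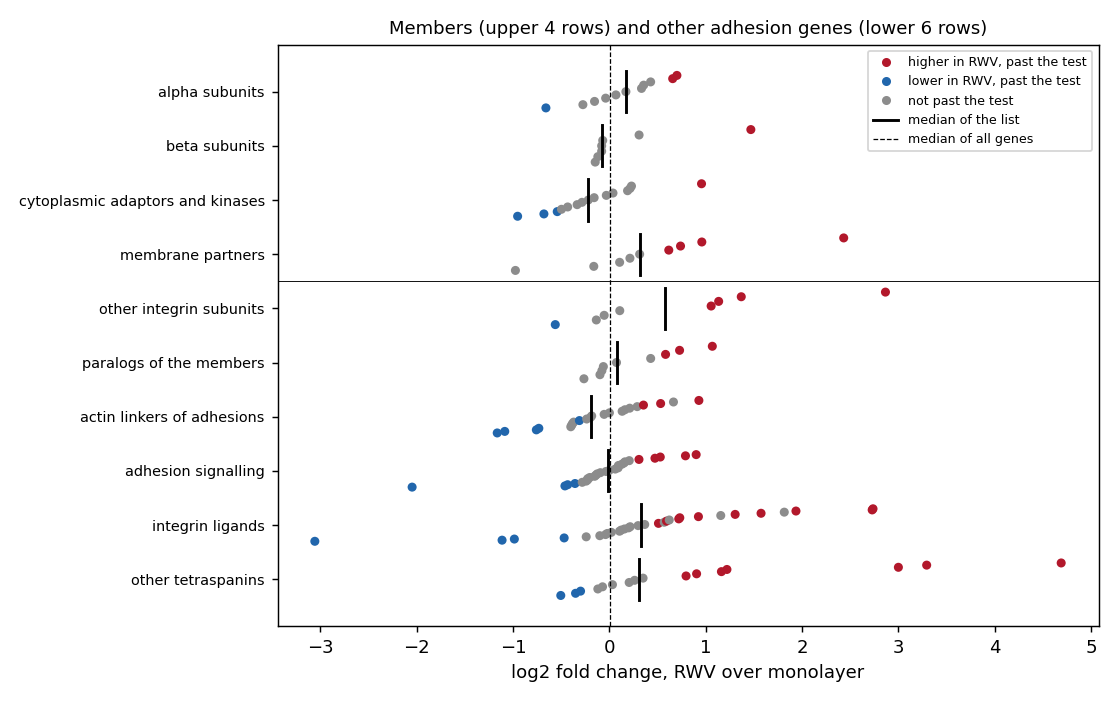
Log2 fold change of RWV over monolayer (x axis) of each measured gene in the 4 role groups of the 42 members (upper rows) and in 6 further adhesion lists (lower rows), with list medians as bars and the median of all genes dashed. The medians of the adaptors (-0.22) and the actin linkers (-0.19) lie left of the line, and those of the other integrin subunits (0.58), the membrane partners (0.31) and the tetraspanins (0.31) to its right.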

How the data were processed

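The deposited tables hold, per the file headers, 1 intensity per spot for each of the 10 one-colour Cy3 arrays (45220 spots, values -66 to 65493). No source used here gives the scanner software, background correction or build. Here the intensities were quantile normalised over the 10 arrays, values below 0 were set to 0, 50 was added and log2 taken. Of 31425 spots with an annotated gene, 93 with several symbols were left out, and the spots of each of 18334 genes were averaged. RWV and monolayer (5 each) were compared with limma 3.58.1 in R 4.3.3 (lmFit, then eBayes; two-sided), and p was adjusted by Benjamini-Hochberg across all 18334 genes. The fit was tested on simulated data. P-values measure the spread between these cultures, which the labels call biological replicates. The 42 members, the further lists and the markers were chosen with earlier results of these data known. All array values are given for members past the test with groups apart (up to 5 per role, largest change first) and for up to 2 bright members per role not past it, and LIMS1 and PXN were added after their values were seen. From each further list up to 4 genes past the test with the largest change are named, plus partners or relatives of members. Listed genes without a spot were not analysed here. Alternatives covered normalization, the added value, spots, dim genes, array sets and single arrays. Replicate numbers in the titles were not used as pairs in the main fit. Deviations from the group mean correlated at -0.15 to 0.22 between RWV and monolayer arrays of equal number. That does not settle whether these numbers pair the cultures. Figures were drawn with matplotlib 3.10.9.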

Additional observations from a re-analysis of the deposited data

Results flagged for a closer look

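In 84 sets of 5 values (42 genes in 2 groups), the array at the end of a group was compared with the rest, and chance marks about 1 set in 20. ITGB5 was marked because monolayer 4, at a normalised intensity of 16858, lay far below the other monolayer arrays (33896 to 38512). ITGA4 was marked because RWV 4, at 40.6, lay above the other RWV arrays (8.7 to 15.4), all of them at dim level.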

How the results depend on the processing

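Over 23 alternative settings CD82, measured by 1 spot, kept its call in each. Of the 12 called members 11 lost theirs in at least 1 setting, and 21 of the other 30 were never called. None of the 12 changed sign in these settings, whereas some uncalled members did, such as PXN (0.56 with the brightest spot). Against 8 members higher and 4 lower, 3 were higher without normalization between arrays, where all genes gave 1037 higher and 2518 lower against 2743 and 2783. Of the members 7 were lower with the brightest spot per gene, 7 with dim genes left out, and 7 with dim spots left out, a setting chosen after seeing the data. Arrays 1 to 3 alone gave 2 lower. Arrays 4 and 5 alone gave 1 member past the test, 1 higher and 0 lower (limma), with fewer arrays. Over all genes arrays 1 to 3 gave 1524 higher and 1647 lower, and arrays 4 and 5 gave 294 and 356. The count of further adhesion genes past the test, 49, was 32 without normalization, 28 with arrays 1 to 3 and 12 with arrays 4 and 5. Leaving out 1 array gave 7 to 9 members higher and 3 to 6 lower. CDC42 changed sign: it was 0.089 with the brightest spot (limma adjusted p = 0.56), against -0.43 with its spots averaged, and the cause was not tested. With the replicate number as a block, 9 members were higher and 5 lower (14 past the test), ITGB1 and TNS1 being added (limma adjusted p 0.045 and 0.024), and 5 of 10 samples correlated best with their own number. For the 6 members dim on all 10 arrays the signal over background limits what can be measured.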

Other observations

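Over the 36 members not dim on all arrays, monolayer 4 was its group's lowest or highest array 23 times, 14 of them as the lowest. RWV 2 and monolayer 3 were so 19 times each, RWV 3 was 17 times, and the other arrays were 8 to 14 times.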
